A study of Mus musculus with 8 samples.

Results

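The genes described here are the 55 of 23284 gene symbols in the count tables that name the Wnt ligands (19 genes), R-spondin ligands (4), Frizzled receptors (10), co-receptors (4), R-spondin receptors (3), secreted Wnt inhibitors (10) and a short group of pathway targets and feedback genes (5). They were picked by their symbols, and all 55 had a row in every library. They were read in 8 RNA sequencing libraries of the mouse ovarian cancer line ID8 IP2, an aggressive subline of ID8, which derives from mouse ovarian surface epithelium. Cells of this line, which also carried a FUW lentivirus for luciferase and mCherry, were each infected with a pCCL lentivirus. In Control lines (n = 4) that vector was empty. In Notch3IC lines (n = 4) it expressed the intracellular domain of Notch3, codons 1664 to 2318, with an HA tag, and GFP from an IRES. Each of Sets 1 to 4 is 1 Control and 1 Notch3IC line made in a separate infection of the same parental cells. The Notch3IC vector alone carries GFP, so effects of GFP and of the Notch3 domain cannot be told apart, and by the study's methods, testing done afterwards points to mycoplasma in all ID8 IP2 lines. The question here is which of these Wnt pathway genes differ between Notch3IC and Control cells.

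Wnt proteins are secreted, lipid-modified ligands that bind Frizzled receptors. Together with the co-receptors Lrp5 and Lrp6 they stabilise beta-catenin, which then acts with Tcf and Lef proteins in the nucleus, and through Ror receptors they act without beta-catenin. R-spondins, bound by Lgr receptors, raise the number of Frizzled receptors at the cell surface, whereas Sfrp proteins and Wif1 bind Wnts outside the cell and Dickkopf proteins such as Dkk1 and Dkk2 bind Lrp5 and Lrp6. In the ovary the pathway is known for roles in gonad development and in the surface epithelium.

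The label check came first. In the order of Sets 1 to 4, Control libraries held 39, 34, 74 and 53 reads of Notch3, and Notch3IC libraries held 3864, 319, 10026 and 6915. Every Notch3IC library lay above every Control library, and that of Set 2 had the lowest count of the 4. The Notch target genes Hey1 (log2 fold change 7.35, SE 0.99) and Nrarp (7.34, SE 1.02) were higher as well, both with an adjusted p of 0.0169 by edgeR's quasi-likelihood test with Benjamini-Hochberg adjustment, although 79.4% of the exon bases of Nrarp overlap a gene of the opposite strand. Heyl, another Notch target, stayed at or under 2 counts throughout Control and was at least 1113-fold higher in Notch3IC cells, against a floor of 3 counts per library. Library totals ran from 19013578 to 28208072 counts in Control (median 24255880) and from 15524262 to 27107061 in Notch3IC (median 24162245.5).

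Among the Wnt genes, 3 secreted inhibitors rose in Notch3IC cells, namely Dkk2, Dkk3 and Sfrp4, and no gene of the 55 passed as lower. Calls needed an adjusted p under 0.1 over 12430 tested genes and a difference of 1 or more on the log2 scale, in either direction. Of the 55 genes 33 were counted highly enough to be tested, and 22 were not. The 3 calls are 9.09% of those 33, beside 3.4% of all genes tested called higher and 0.74% called lower. Dkk2 was tested only because it is counted in Notch3IC cells, with no Control library over the filter. The share of 9.09% therefore rests in part on the group where Dkk2 is high. By the unadjusted p under 0.05, 6 of the 33 were higher, beside 11.8% of all genes tested, and 4 lower, beside 6.65%. The median log2 fold change of the 33 was 0.09, with 18 above and 15 below 0, and that of all genes tested was -0.01. Where a whole library of RNA is compared in this way, fewer cells expressing a gene and less RNA per cell cannot be told apart.

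With the set as a replicate block 10 of the 33 genes were called. Those higher were Dkk2, Dkk3, Sfrp4, Frzb, Rspo1 and Rspo3, 6 genes beside 5.19% of all genes tested, and those lower were Wnt6, Wnt10a, Wnt16 and Lgr5, 4 genes beside 2.53%. DESeq2 called 5 higher (Dkk2, Dkk3, Sfrp4, Frzb and Rspo1) beside 5.07% and 2 lower (Wnt6 and Wnt10a) beside 1.38% of the 13958 genes it gave an adjusted p. The 4 Notch3IC libraries lay wholly above the 4 Control libraries for 3 genes (Dkk2, Dkk3 and Fzd8), beside 7.08% of all genes tested, and wholly below them for 2 (Wnt9a and Wnt10a), beside 3.75%. The values of each group of genes follow.

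The secreted inhibitors included Dkk2, the largest difference of the 33 genes. Each of the 5 that could be tested had a log2 ratio above 0 in all 4 sets, and their log2 fold changes ran from 1.89 to 7.45 with a median of 2.68. Among the 33 genes 10 had ratios above 0 in all 4 sets, and among 54 other Wnt pathway genes 18 did. The share over all genes tested is not given here. The other 5 inhibitors, Sfrp1, Sfrp5, Dkk1, Dkk4 and Wif1, had at most 6 counts in any library, so no statement about them was possible at this depth. Dkk1, which is the best known Lrp5 and Lrp6 antagonist, was at 0 counts in all 8 libraries.

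Dkk2, a Dickkopf protein that binds Lrp5 and Lrp6, went from nearly absent to readily counted. In Control cells it had 0.991, 5.97, 0.957 and 0.792 normalized counts in Sets 1 to 4, and in Notch3IC cells 694, 48.3, 312 and 408. The highest Control library and the lowest Notch3IC library are both of Set 2, and the groups do not overlap. Its mean was 2.18 ± 2.53 normalized counts in Control and 366 ± 267 in Notch3IC (SD, n = 4), a log2 fold change of 7.45 (SE 0.99, adjusted p = 0.0169 by edgeR's quasi-likelihood test). No Control library reached the expression filter and all 4 Notch3IC libraries did, so Dkk2 was tested only because it is counted in Notch3IC cells. The summed counts were 8 in Control and 1477 in Notch3IC, a depth-scaled ratio of 199 with an exact 95% interval of 101 to 462 that covers counting error only. Within Set 2 the ratio was 8.10 (3.14 to 26.6), from 5 and 33 counts. Without the Control library of that set the log2 fold change of Dkk2 was 8.48.

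Dkk3 belongs to the same family by sequence but is a divergent member that is not a typical Lrp5 and Lrp6 antagonist. It had 72.3, 52.5, 34.4 and 27.7 normalized counts in Control cells of Sets 1 to 4 and 411, 146, 303 and 334 in Notch3IC cells. The groups do not overlap, and the Notch3IC library of Set 2 was again the lowest of its group. The mean rose from 46.8 ± 20.01 to 299 ± 111 normalized counts (SD, n = 4), a log2 fold change of 2.68 (SE 0.40, adjusted p = 0.0197 by edgeR's quasi-likelihood test).

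Sfrp4 encodes a secreted protein with a cysteine-rich domain like that of the Frizzled receptors. It had the highest mean level per length of the inhibitors, at an RPKM (reads per kilobase of transcript, scaled to the depth of the library) of 3.05 ± 1.21 in Control and 40.7 ± 25.1 in Notch3IC (SD, n = 4). Sfrp2 was higher than Sfrp4 per length in both libraries of Set 2 and in the Control library of Set 1, and in Control its mean RPKM of 1.82 ± 1.62 does not differ from that of Sfrp4 beyond the spread. Control cells of Sets 1 to 4 held 208, 218, 454 and 273 normalized counts and Notch3IC cells 4979.5, 435, 5812 and 4143. In 3 of the sets the Notch3IC value exceeded every Control value, but that of Set 2 (435) lay below the Control value of Set 3 (454), so the groups overlap. The log2 fold change was 3.73 (SE 0.71, adjusted p = 0.0337 by edgeR's quasi-likelihood test). The call of Sfrp4 was lost when 1 of 3 libraries was left out, the Set 3 or Set 4 Control or the Set 4 Notch3IC library, with log2 fold changes of 4.04, 3.71 and 3.70 and adjusted p of 0.104, 0.129 and 0.101 by edgeR. Leaving out all of Set 3 or all of Set 4 ended the calls of all 3 inhibitors, in fits without the block that called 1 gene and no gene higher.

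Frzb, also known as Sfrp3, is a further Frizzled-related protein. It was counted at 6.94, 53.7, 21.0 and 26.1 normalized counts in Control and 44.7, 95.2, 131 and 133 in Notch3IC cells. Each Notch3IC library exceeded the Control library of its own set, while the groups overlap, since the Control library of Set 2 lay above the Notch3IC library of Set 1. The log2 fold change was 1.92 (SE 0.57) and missed the threshold with an adjusted p of 0.118 by edgeR's quasi-likelihood test, and it passed with the replicate block (2.04, adjusted p = 0.0293). Sfrp2 differed most in Sets 2 and 4, with 172, 123, 30.6 and 13.5 normalized counts in Control and 211, 871, 39.5 and 133 in Notch3IC cells. The groups overlap widely, and the log2 fold change of 1.89 (SE 1.02, adjusted p = 0.375 by edgeR) did not pass in either fit. Of the exon bases of Sfrp2, 16.1% overlap a gene on the opposite strand, and the sources used here do not say whether counting used strand.

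**Figure D1:**
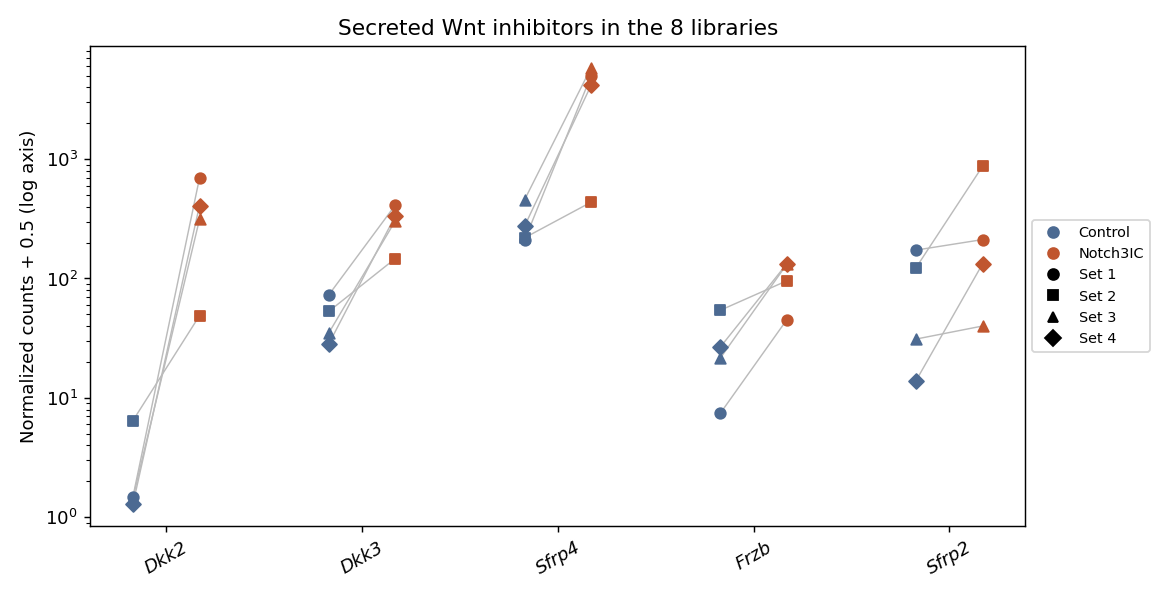
Normalized counts plus 0.5 on a log axis of the 5 secreted Wnt inhibitors that were tested. Each point is 1 library (blue Control, orange Notch3IC, marker shape for the set) and grey lines join the libraries of a set. All 20 lines run upward, that of Dkk2 in Set 1 from 0.991 to 694 normalized counts, and the Notch3IC library of Set 2 is the lowest of its group for Dkk2, Dkk3 and Sfrp4.

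The sequences before the start sites of 3 of these genes are shown as examples of 3 outcomes of the tests, a gene called higher in the main test (Dkk2), one called higher with the block and with DESeq2 but not in the main test (Rspo1) and one called lower in the same way (Wnt6). They are the 250 bases before the RefSeq start site on mouse GRCm38.p6, plus strand, and lie at chr3:132085042-132085291, chr4:124986180-124986429 and chr1:74771642-74771891. The start sites equal the gene starts of GENCODE M21. Capitals mark a match to TATAAAA.
Dkk2: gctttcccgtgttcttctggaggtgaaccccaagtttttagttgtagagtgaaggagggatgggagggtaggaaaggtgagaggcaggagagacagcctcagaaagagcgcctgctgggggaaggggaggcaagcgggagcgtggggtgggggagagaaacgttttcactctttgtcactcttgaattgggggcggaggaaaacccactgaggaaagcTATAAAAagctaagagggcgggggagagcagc
Rspo1: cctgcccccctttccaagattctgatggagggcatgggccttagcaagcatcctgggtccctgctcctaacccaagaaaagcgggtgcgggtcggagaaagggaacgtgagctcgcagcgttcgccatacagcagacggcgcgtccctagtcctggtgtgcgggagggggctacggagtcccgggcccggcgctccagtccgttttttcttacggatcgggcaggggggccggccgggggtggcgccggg
Wnt6: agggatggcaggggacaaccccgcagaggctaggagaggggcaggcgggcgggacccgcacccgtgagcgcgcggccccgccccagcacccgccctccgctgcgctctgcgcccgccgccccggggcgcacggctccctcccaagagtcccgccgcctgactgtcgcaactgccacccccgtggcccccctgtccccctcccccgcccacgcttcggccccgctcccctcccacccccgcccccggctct

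Such windows were matched for 38 of the 55 genes (45 promoters), and for 5 of the 10 genes called in either fit. Their GC content had a median of 66.4% in the 45 promoters, against 52.4% in all 32851 mouse promoters of the table, and the median number of CpG sites was 17 against 6. That of Dkk2 was 55.6% GC with 7 CpG sites, Rspo1 had 66.8% with 22, and Wnt6 had 79.6% with 28. The letters TGGGAA, the core of the Rbpj site through which Notch acts, stand on either strand in 21.6% of all promoters and in 6 of the 45, among them that of Frzb, whose window before the RefSeq start lies mostly inside the gene as GENCODE M21 draws it. CACGTG, an E-box that Hey and Hes proteins can bind, stands in 6.02% of all and 5 of the 45, and CTTTGAT, the letters read by Tcf and Lef proteins, in 3.21% of all and 2 of the 45. The windows of Dkk2, Rspo1, Wnt6 and Wnt16 hold none of these 3 motifs. TATAAAA, searched for after the Dkk2 sequence had been read, stands in 4.98% of all promoters on either strand and in those of Dkk2, Fzd1 and Wnt11, in Dkk2 32 bases before the start. A match describes the letters only.

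Among the Wnt ligands 10 of 19 were tested, and without the block none was called higher or lower by edgeR's quasi-likelihood test. With the block 3 were called lower (Wnt6, Wnt10a and Wnt16), beside 2.53% of all genes tested, and none higher. At an unadjusted p under 0.05, 4 of the 10 were lower (Wnt5b, Wnt6, Wnt9a and Wnt10a), beside 6.65% of all genes tested. Log2 fold changes were negative for 8 of the 10, with a median of -0.57, beside -0.01 over all genes tested. The exceptions were Wnt2 (0.41, adjusted p = 0.807 by edgeR) and Wnt4 (0.62, adjusted p = 0.531 by edgeR).

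Wnt10a, a ligand of the beta-catenin branch with known roles in skin and teeth, had the most negative log2 fold change of the ligands. It had 1182, 2522, 3184 and 3315 normalized counts in Control and 78.2, 1136, 179 and 330.1 in Notch3IC cells of Sets 1 to 4. All 4 Notch3IC libraries lay below all Control libraries, with the Notch3IC library of Set 2 close to the Control library of Set 1. The log2 fold change was -2.58 (SE 0.76). Its adjusted p was 0.111 by edgeR with condition alone, which misses the threshold of 0.1, and 0.0328 with the replicate block (log2 fold change -3.10).

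Wnt6 is the neighbour of Wnt10a on chromosome 1 (GRCm38, Wnt6 at 74771892 to 74785322 and Wnt10a at 74791516 to 74804179), with 6193 bases between them on the same strand. Control cells had 72.3, 286, 266 and 357 normalized counts of it, and Notch3IC cells had 13.4, 132, 35.8 and 55.7. Within each set the Notch3IC library was lower, but the Set 2 Notch3IC value exceeded the Set 1 Control value. The log2 fold change was -2.07 (SE 0.69, adjusted p = 0.151 by edgeR), and -2.24 with the block (adjusted p = 0.0265). Without the Notch3IC library of Set 2 the log2 fold change was -2.79 for Wnt6 and -3.69 for Wnt10a. Both Wnt6 and Wnt10a were called lower when the Control library of Set 1, the Notch3IC library of Set 2, or both libraries of either set were left out. The other adjacent pairs of Wnt genes, Wnt1 with Wnt10b, Wnt3 with Wnt9b and Wnt3a with Wnt9a, lie on opposite strands with 11706, 24328 and 16175 bases between them, and in each pair no more than 1 gene was tested.

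Wnt9a was lower by less than the fold limit. It had 301, 347, 551 and 506 normalized counts in Control and 234, 265, 283 and 213 in Notch3IC cells, groups that do not overlap. The log2 fold change was -0.78 (SE 0.21, adjusted p = 0.0918 by edgeR). Wnt16 was a scarce ligand with 8.92, 95.4, 29.7 and 35.7 normalized counts in Control and 3.35, 60.0, 5.51 and 17.7 in Notch3IC cells. Set 2 was the highest of each group, the groups overlap, and it passed only with the block (log2 fold change -1.20, adjusted p = 0.0622, beside -1.01 and 0.633 by edgeR without it). The unblocked value was -0.25 with the Set 2 Control library left out and -2.20 with the Set 2 Notch3IC library left out, neither called. Wnt5a and Wnt5b, ligands known mainly for signalling without beta-catenin, had log2 fold changes of -0.54 (adjusted p = 0.425) and -0.60 (adjusted p = 0.261), Wnt10b -0.49 (adjusted p = 0.457) and Wnt11 -0.22 (adjusted p = 0.886), all by edgeR.

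**Figure D2:**
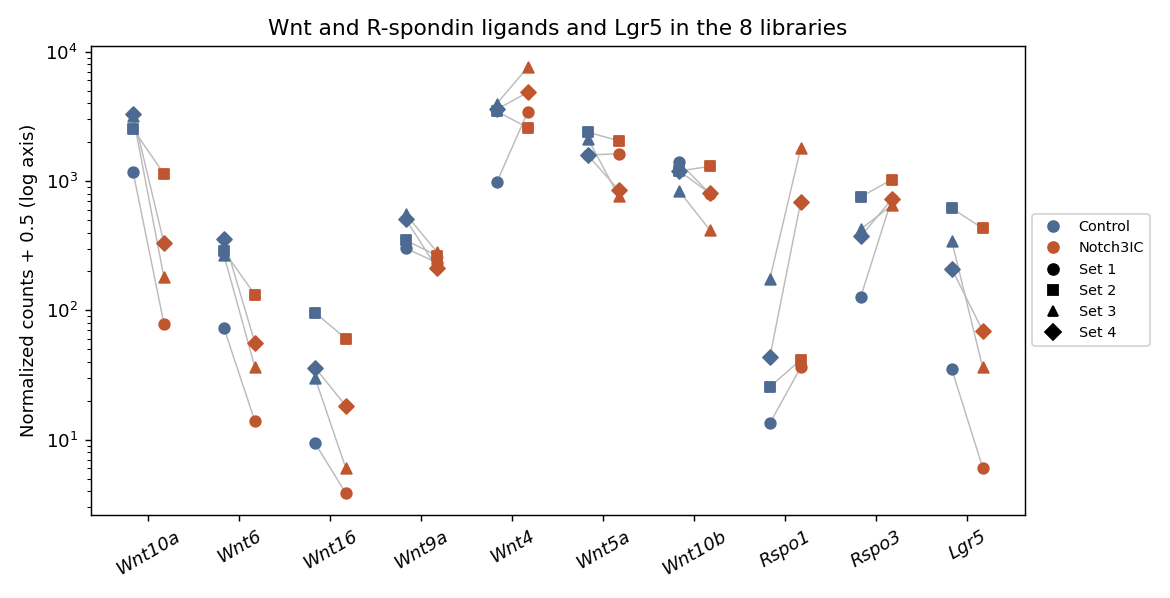
Normalized counts plus 0.5 on a log axis of 7 Wnt ligands, the 2 R-spondins tested and Lgr5. Each point is 1 library (blue Control, orange Notch3IC, marker shape for the set) and grey lines join the libraries of a set. Wnt10a, Wnt6, Wnt16, Wnt9a and Lgr5 run downward in all 4 sets, Rspo1 and Rspo3 upward in all 4, and Wnt4 upward in Sets 1, 3 and 4.

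Per length, the order of the ligands differed between the conditions. In Control cells Wnt10a (RPKM 44.3 ± 16.9, SD, n = 4) and Wnt4 (30.6 ± 13.9), a ligand needed in ovary development, had the highest means. Their spreads between the sets overlap, but Wnt10a was above Wnt4 within each Control library. In Sets 1 to 4 Wnt10a made up 26.4%, 33.7%, 38.4% and 40.2% of the summed level, and Wnt4 12.9%, 27.1%, 28.2% and 25.6%. In the Control library of Set 1 Wnt10b was above both, at 28.5% of the summed level. Wnt10b (18.4 ± 3.67) and Wnt5a (11.7 ± 2.46) came next. In Notch3IC cells Wnt4 was the highest at 47.1 ± 22.4, followed by Wnt10b at 13.1 ± 5.70, Wnt5a at 8.07 ± 3.79 and Wnt10a at 7.48 ± 8.36. The spreads of these last 3 between the sets overlap, but Wnt10b was above Wnt5a and Wnt10a within each Notch3IC library. Wnt10a was above Wnt5a in Sets 2 and 4 and below it in Sets 1 and 3. The summed ligand RPKM of Sets 1 to 4 came to 77.9, 130.1, 144 and 143 in Control cells and to 70.0, 91.3, 104 and 81.3 in Notch3IC cells, lower within each set, although the groups overlap through Set 1. Wnt10a made up 34.6% ± 6.18 of that sum in Control and 8.40% ± 9.08 in Notch3IC, and Wnt4 23.4% ± 7.12 and 53.7% ± 19.3. The Wnt10a share of the Notch3IC libraries was 21.6% in Set 2 and between 1.94% and 7.05% in the other sets. In Set 2 the Wnt4 share was 27.1% in Control and 29.0% in Notch3IC, whereas in Sets 1, 3 and 4 it was 12.9%, 28.2% and 25.6% in Control and 50.0%, 74.7% and 61.0% in Notch3IC. Shares sum to a fixed total, so a lower Wnt10a share raises the others, and the level of Wnt4 itself did not pass the test.

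**Figure D3:**
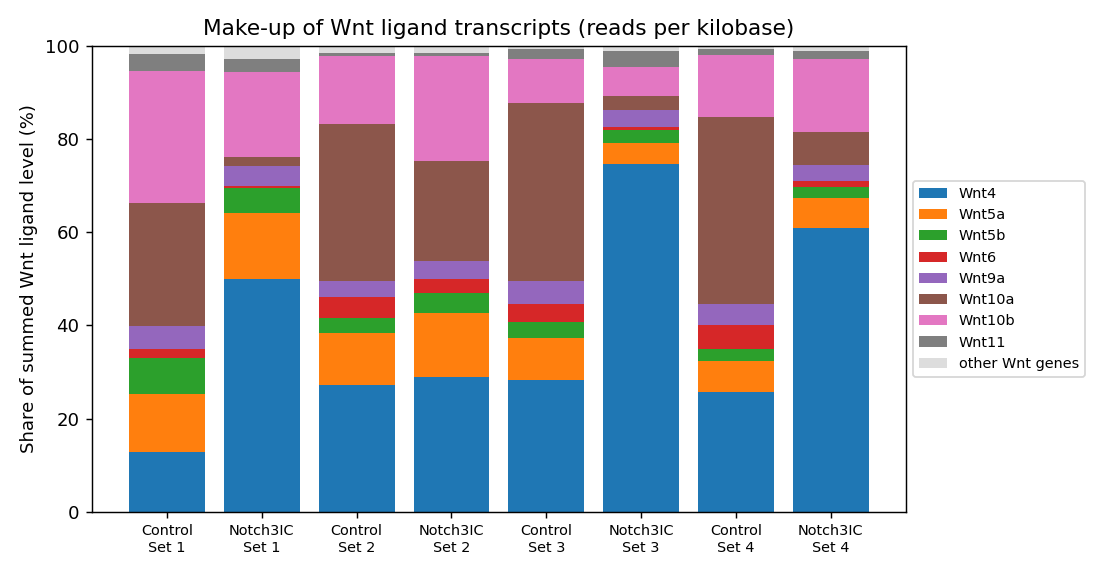
Percent of the summed Wnt ligand level (reads per kilobase of transcript) held by each ligand in each of the 8 libraries, as stacked bars that start at 0. The Wnt10a segment is smaller in the Notch3IC library of each set, and the Wnt4 segment is the largest of all 4 Notch3IC libraries, from 29.0% in Set 2 to 74.7% in Set 3.

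The R-spondins, which strengthen Wnt signals, both had log2 ratios above 0 in each set. Rspo1, which is needed for ovary development, had 12.9, 25.1, 173 and 42.8 normalized counts in Control and 35.8, 41.0, 1794 and 689.8 in Notch3IC cells. Sets 3 and 4 carry the difference, and the Notch3IC libraries of Sets 1 and 2 lie within the Control range. Its log2 fold change was 3.33 (SE 1.33, adjusted p = 0.228 by edgeR), and 2.93 with the replicate block (adjusted p = 0.0357). Leaving out the Set 3 Notch3IC library gave 2.01 and leaving out the Set 3 Control library 4.55, neither called. Rspo3 had 127, 754, 425 and 373 normalized counts in Control and 722, 1024, 648 and 720.2 in Notch3IC cells. Here Set 1 had the largest difference, the Control library of Set 2 lay above 3 of the Notch3IC libraries, and the log2 fold change was 0.89 (SE 0.44, adjusted p = 0.329 by edgeR) and 1.07 with the block (adjusted p = 0.092). With the Set 1 Control library left out it was 0.59, and with the Set 2 Control library left out 1.33, neither called. Of the exon bases of Rspo3, 13.1% overlap a gene on the opposite strand, and whether the counting used strand is not given in the sources used here. Rspo2 and Rspo4 had at most 1 count in any library.

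The receptors of R-spondins were Lgr4, which was the most abundant of the 3, Lgr5 and Lgr6. Lgr4 did not pass the test (log2 fold change 0.11, adjusted p = 0.905 by edgeR). Lgr5, known as a stem cell marker and as a target of beta-catenin, had 34.7, 616, 343 and 209 normalized counts in Control and 5.59, 431, 35.8 and 69.2 in Notch3IC cells. It was lower in each set, by a log2 ratio of -0.52 in Set 2 and of -1.59 to -3.24 in the others, but Set 2 was the highest of each group and the groups overlap. Without the block it was -1.17 on the log2 scale (SE 1.15, adjusted p = 0.655 by edgeR), and -1.78 with the block (adjusted p = 0.0653). Leaving out the Set 2 Control library gave -0.55 and leaving out the Set 2 Notch3IC library gave -3.00, neither called. Lgr6 had at most 14 counts.

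No Frizzled receptor was called in either direction, and the 10 ranged from abundant to uncounted. Of the 10, 8 were tested, with log2 fold changes from -0.45 to 0.79, and 1 (Fzd8, higher) passed the unadjusted p under 0.05, beside 11.8% of all genes tested. Fzd8 had 125, 137, 119.6 and 109 normalized counts in Control and 253, 165, 233 and 198 in Notch3IC cells. The groups do not overlap, and the log2 fold change of 0.79 (SE 0.17, adjusted p = 0.0476 by edgeR) passed the p threshold and stayed under the fold limit. Fzd8 was also one of the scarcer receptors, at an RPKM of 0.880 ± 0.0832 in Control and 1.52 ± 0.276 in Notch3IC cells (SD, n = 4). By RPKM the highest in Control were Fzd2 (21.5 ± 8.35), Fzd6 (18.5 ± 4.19), Fzd7 (16.98 ± 3.19), Fzd4 (13.0 ± 4.88) and Fzd1 (11.5 ± 3.60). The spreads of neighbours in this order overlap, although Fzd7 was above Fzd4 per length within every Control library. Their log2 fold changes were -0.13 (Fzd2), -0.45 (Fzd6), -0.42 (Fzd7), 0.19 (Fzd4) and 0.41 (Fzd1), with adjusted p from 0.278 to 0.859 by edgeR. Fzd3 and Fzd10 had at most 3 counts.

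The co-receptors Lrp5 and Lrp6 had an RPKM of 23.9 ± 3.95 and 20.2 ± 1.39 in Control and 29.5 ± 6.85 and 21.7 ± 2.59 in Notch3IC cells (SD, n = 4). Lrp6 had 4488, 4062, 5121 and 5279 normalized counts in Notch3IC cells and 3996, 4372, 4680.5 and 4588 in Control, a log2 fold change of 0.10 (SE 0.11, adjusted p = 0.679 by edgeR). That of Lrp5 was 0.30 (SE 0.19, adjusted p = 0.457 by edgeR). Ror1, a receptor for Wnt5a, went in different directions between the sets, with 542, 539, 509 and 545 normalized counts in Control and 205, 599, 823 and 652 in Notch3IC cells. Its Control values lay close together while its Notch3IC values spread on either side of them (log2 fold change 0.09, adjusted p = 0.924 by edgeR). Ror2 had at most 1 count.

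None of Axin2, Lef1 and Tcf7, the 3 genes tested from the group of pathway targets and feedback genes, was called. Axin2, a target in many tissues and a negative feedback gene, had 335, 715, 503 and 342 normalized counts in Control and 325, 663, 680.1 and 527 in Notch3IC cells. Its ratio was just below 0 in Sets 1 and 2 and above 0 in Sets 3 and 4, with a log2 fold change of 0.21 (SE 0.31, adjusted p = 0.778 by edgeR). Lef1 (log2 fold change -0.21, SE 0.31, adjusted p = 0.784) and Tcf7 (0.06, SE 0.18, adjusted p = 0.912) did not pass by edgeR either. Nkd1, a feedback inhibitor, was at 0 in all libraries and Nkd2 had at most 5 counts. None of the 3 tested targets reached an unadjusted p under 0.05, and DESeq2 called none of them.

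**Figure D4:**
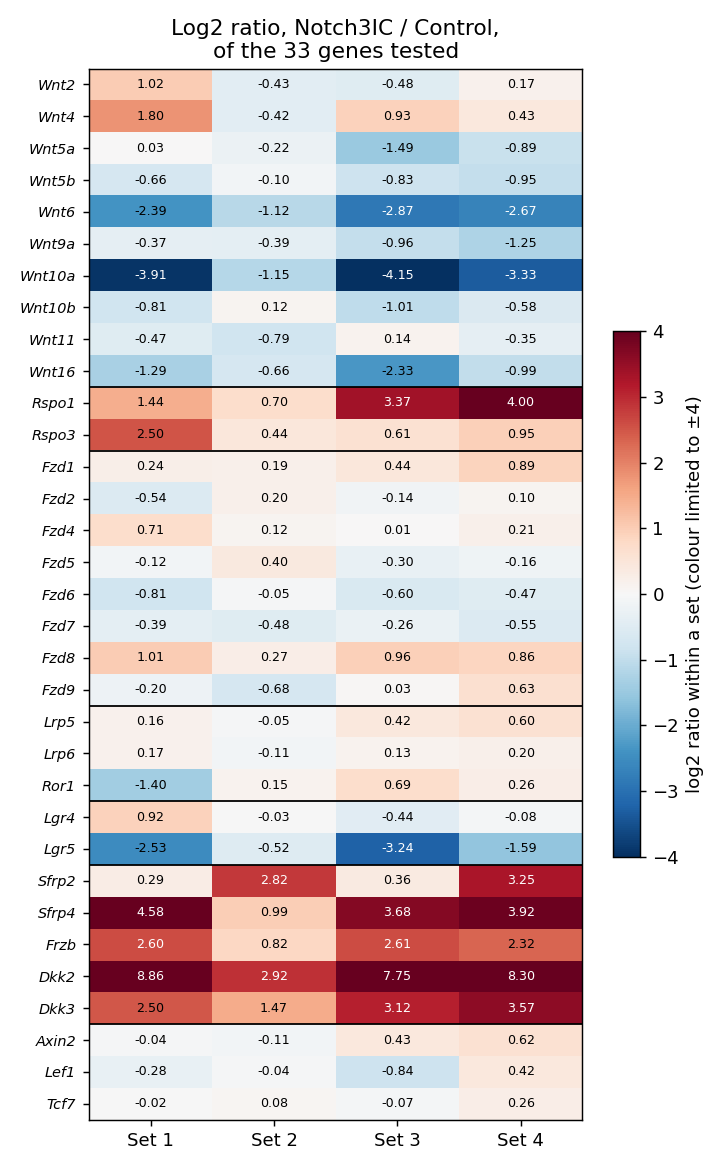
Log2 ratio of Notch3IC to Control within each of Sets 1 to 4 for the 33 genes tested, in order of role, with the value written in each cell and colour limited to 4 in either direction. The 5 secreted inhibitors are above 0 in all 20 cells, and the column of Set 2 holds smaller ratios than the other sets for Dkk2, Dkk3, Sfrp4, Wnt6 and Wnt10a.

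The 22 genes that were not tested were mostly at or near 0. In 7 of them no library had a count (Wnt3a, Wnt8b, Fzd10, Sfrp5, Dkk1, Dkk4 and Nkd1), and 18 of the 22 stayed under 10 counts in every library. The remaining 4 were Wnt1 and Wnt2b (at most 19 counts each), Lgr6 and Wnt7b. Wnt7b had 0, 0, 8 and 6 counts in Control cells of Sets 1 to 4 and 20, 1, 65 and 19 counts in Notch3IC cells. It was under the filter of the main test, DESeq2 did not call it (adjusted p = 0.117), and edgeR called it higher when the Notch3IC library of Set 2 was left out, where it was tested only because it is counted in Notch3IC cells, with no Control library over the filter.

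Of 69 other genes of the pathway, from ligand secretion to nuclear partners, 68 had a row and 54 were tested. Those called higher were 6 (Wisp2, Tspan12, Gpc4, Apcdd1, Kremen1 and Pygo1), beside 3.4% of all genes tested, and none was lower by edgeR without the block, beside 0.74%. With the replicate block Tle2 was called higher as well (7 genes, beside 5.19%) and Celsr1 lower (log2 fold change -1.12, adjusted p = 0.0747 by edgeR, beside 2.53%). At an unadjusted p under 0.05, 13 were higher, beside 11.8%, and 5 lower, beside 6.65%. DESeq2 called 8 higher, the 6 with Tle2 and Prickle2, beside 5.07%, and 1 (Celsr1) lower, beside 1.38%. Prickle2, a gene of planar cell polarity, had at most 22 counts and was under the expression filter of edgeR.

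Wisp2, a secreted matricellular protein first described as induced by Wnt, had by far the largest difference in this group. It had 275, 186, 21.0 and 26.9 normalized counts in Control and 10206, 3951, 7932 and 8544 in Notch3IC cells of Sets 1 to 4. The lowest Notch3IC library exceeds the highest Control library, at a log2 fold change of 5.93 (SE 0.87, adjusted p = 0.0187 by edgeR). Wisp1, of the same family, did not pass the test. Both belong to the 11 further genes listed as known to respond to beta-catenin, of which 7 were tested. Of these 7, 1 (Wisp2) was called higher, beside 3.4% of all genes tested, and none lower, beside 0.74%. Log2 fold changes were positive for 3 of the 7 and negative for 4, with a median of -0.16.

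Extracellular and membrane proteins made up most of the rest. Kremen1, a transmembrane receptor for Dickkopf proteins, had 1214, 1144, 1114 and 879 normalized counts in Control and 3087, 1394, 2961 and 2701 in Notch3IC cells, which do not overlap (log2 fold change 1.22, SE 0.24, adjusted p = 0.0379 by edgeR). Apcdd1, a membrane-bound Wnt inhibitor, had a log2 fold change of 1.25 (SE 0.26, adjusted p = 0.0413 by edgeR). The glypican Gpc4, a cell surface proteoglycan, had 1.74 (SE 0.32, adjusted p = 0.0311), and Tspan12, a tetraspanin that works with Fzd4, 2.02 (SE 0.41, adjusted p = 0.0392), both log2 fold changes by edgeR. Each of these 4 had its smallest ratio in Set 2. The Notch3IC libraries lay wholly above the Control libraries for these 4 and for 9 of the 54 in all, beside 7.08% of all genes tested. They lay wholly below the Control libraries for 2 of the 54 (Vangl1 and Tle3), beside 3.75%. For Kremen1 and Apcdd1, Set 2 had log2 ratios of 0.28 and 0.31, against 1.31 or more in the other sets.

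In the cytoplasm none of 23 genes tested was called by edgeR, beside 3.4% higher and 0.74% lower of all genes tested. At an unadjusted p under 0.05, 3 of them were higher, beside 11.8%, and 1 lower, beside 6.65%. Tnks, a tankyrase that marks Axin proteins for degradation, passed the p threshold but not the fold limit (log2 fold change 0.81, SE 0.22, adjusted p = 0.0978 by edgeR), and Ctnnb1 (beta-catenin itself) had a log2 fold change of 0.19 (SE 0.10, adjusted p = 0.378 by edgeR). Of the 10 nuclear partners Pygo1 was called higher (log2 fold change 1.18, SE 0.27, adjusted p = 0.0558 by edgeR), beside 3.4% of all genes tested. At an unadjusted p under 0.05, 5 of the 10 were higher, beside 11.8%, and 1 lower, beside 6.65%. Tcf7l1 and Tcf7l2, which bind DNA for beta-catenin, passed the p threshold but not the fold limit, at log2 fold changes of 0.90 (adjusted p = 0.0195) and 0.73 (adjusted p = 0.0741), and the co-repressor Tle3 at -0.55 (adjusted p = 0.0631), all by edgeR. Of the 6 called genes, Wisp2 alone stayed called when the Set 3 or Set 4 Control or the Set 4 Notch3IC library was left out, and Wisp2 and Gpc4 did so without the Set 3 Notch3IC library. No gene of the 54 was called with all of Set 3 or all of Set 4 left out. Pygo1 was also not called with all of Set 1 left out, or when the adjusted p had to be under 0.05.

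**Figure D5:**
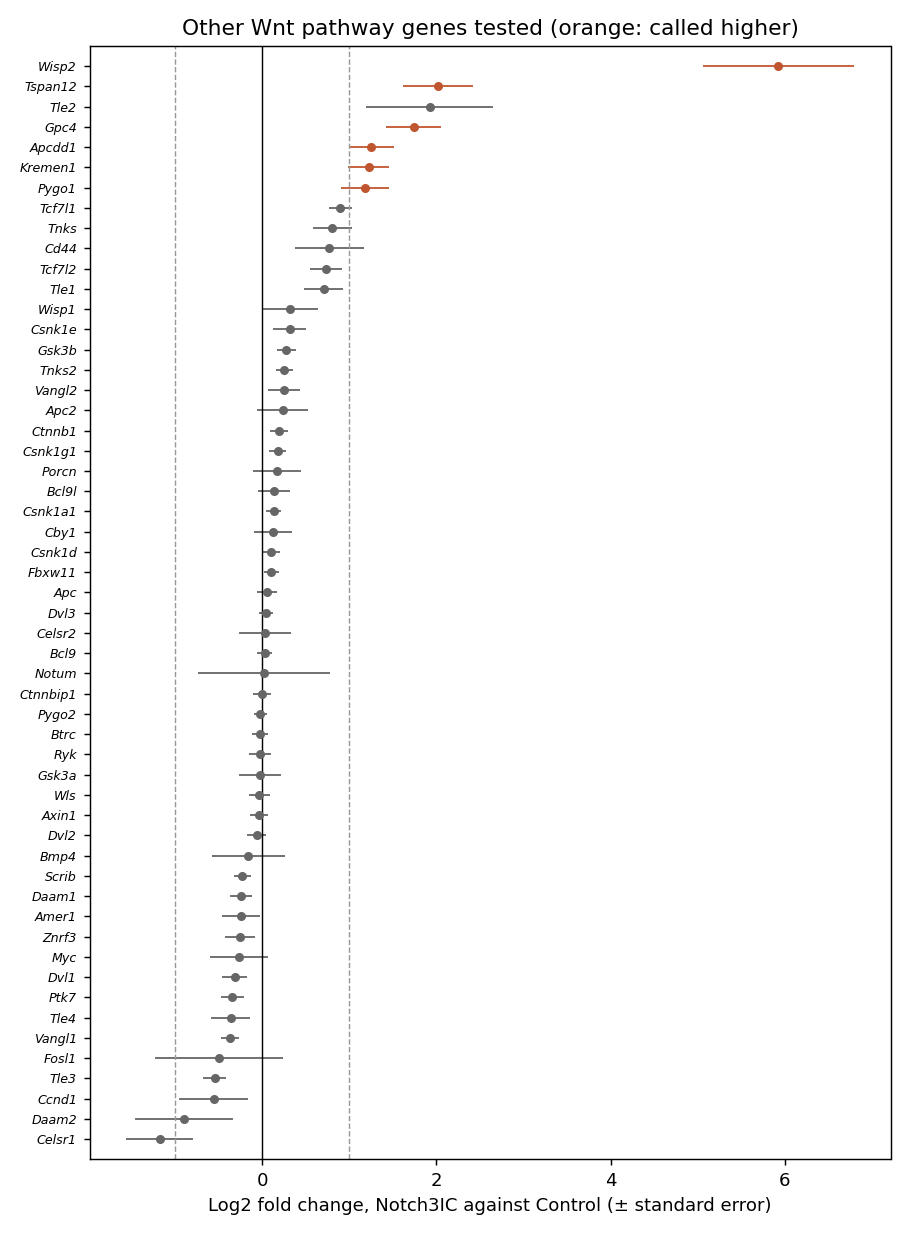
Log2 fold change of Notch3IC against Control (points) and its standard error (bars) for the 54 other Wnt pathway genes tested, in order of size. Orange marks the 6 genes called higher, Wisp2 furthest out at 5.93, and dashed lines mark the fold limit of 1 in either direction.

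Markers of cell types differed between the conditions as well. Of 11 genes of ovarian surface epithelium or mesothelium, 2 of 10 tested were called lower, beside 0.74% of all genes tested, Msln (log2 fold change -2.60, SE 0.63, adjusted p = 0.0625) and Upk1b (-2.19, SE 0.56, adjusted p = 0.0762), both by edgeR. With the replicate block 7 of the 10 were called lower, adding Upk3b, Lrrn4, Krt19, Gpm6a and Bnc1, beside 2.53% of all genes tested. DESeq2 called 5 lower, beside 1.38%, namely Msln, Upk1b, Upk3b, Krt19 and Krt7, the last of which was under the filter of edgeR. The summed normalized counts of the list, in which Upk3b had the highest mean, came to 27550, 54931, 82017 and 77711 in Control cells of Sets 1 to 4 and to 7823, 34864, 27624 and 21718 in Notch3IC cells, so that the groups overlap, the sum is lower in Notch3IC cells within each set, and Set 1 is the lowest of each group. Krt7 was the scarcest, at no more than 46 counts, and no gene of the list was at 0. The 6 epithelial junction genes summed to between 131 and 657 normalized counts in Control and between 70.4 and 532 in Notch3IC. Cdh1, the only one tested, had the highest mean and did not pass (log2 fold change -0.48, adjusted p = 0.764 by edgeR), and Epcam had at most 12 counts. Of 7 genes of fibroblasts or mural cells Pdgfrb (5.99, SE 0.83) and Cspg4 (4.20, SE 0.57) were called higher among 4 tested, beside 3.4% of all genes tested, each at a log2 fold change with an adjusted p of 0.0169 by edgeR. With the block Acta2 was called as well (log2 fold change 1.45, adjusted p = 0.0362). The list summed to 35831, 19084, 11026 and 7427 normalized counts in Control and 80904, 26148, 37954 and 33585 in Notch3IC cells, higher in each set but with overlapping groups. Acta2 had the highest mean, with Thy1 at no more than 2 counts.

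Markers of leukocytes and endothelium stayed low. Among 9 leukocyte genes Ptprc had at most 2 counts and Adgre1 and Cd3e were at 0, while Csf1r passed as higher (log2 fold change 1.52, SE 0.38, adjusted p = 0.0719 by edgeR) at no more than 36 counts in any library, and was tested only through the Notch3IC libraries, since 1 Control library of 4 reached the filter. The leukocyte list summed to between 168 and 212 normalized counts in Control and between 115 and 182 in Notch3IC, with Cd14 the highest by its mean. The 7 endothelial genes summed to between 13.5 and 51.4 normalized counts in each library, with Pecam1 the highest by its mean and Tek and Emcn at no more than 1 count. The part of these marker differences in the Wnt gene results was not tested.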

How the data were processed

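RNA was polyadenylated RNA of the 8 lines, sequenced as single-end reads. The authors used TopHat, Cufflinks and DESeq on mm9, by their processing notes (versions not given in the sources used here), and deposited whole-number counts per gene symbol, 1 table per library, of which 17359 symbols had a count. The members and gene lists were chosen with earlier results of these data known.

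Counts were compared with edgeR 4.0.16 in R 4.3.3 (TMM, filterByExpr by condition with a minimum count of 10, robust quasi-likelihood F test, condition alone). Calls required an adjusted p (Benjamini-Hochberg over 12430 genes) under 0.1 and a log2 difference of 1 or more in either direction. Normalized counts are counts per TMM-scaled total times the mean total. Ratios within a set used a pseudocount of 0.5. Levels per length used the longest coding transcript of GENCODE M21 (GRCm38), which also gave positions and overlaps, while promoters came from RefSeq. The biological coefficient of variation was 26.3%, and 14.1% with the set as a block. The set numbers pair the libraries, since each set is a separate infection. Deviations from the group mean correlated at 0.41 to 0.79 within a set, against -0.51 to 0.40 for crossed pairs. Centring each group on its own mean lowers the crossed values. Crossed pairs of Sets 3 and 4 (0.40 and 0.39) lay near the lowest value within a set. Genes called with or without the block are given in full. Other pathway genes are named when called, and any further ones were named with their values in view. The fit was tested on simulated data. The simulation gave every gene the same dispersion and held no set effect, unlike these libraries. Alternatives were DESeq2 1.42.0, other normalizations, filters and thresholds, the block, and leaving out libraries or sets. Figures used Python 3.11.15 and Matplotlib 3.10.9.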

Additional observations from a re-analysis of the deposited data

Results flagged for a closer look

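In 4 of 42 groups of 4 libraries examined, 1 library stood apart from the other 3 by Dixon's criterion, where chance alone flags about 1 in 20 groups, or 2.1 here. Lgr5 had 430.53 normalized counts in the Notch3IC library of Set 2, against 5.59 to 69.2 in the other Notch3IC libraries. Dkk2 had 5.97 normalized counts in the Control library of Set 2, from 5 reads, against 0.79 to 0.99 in the other Control libraries, from 1 read each. Gpc4 had 225.93 normalized counts in the Control library of Set 1, against 141 to 153 in the others. Notch3 had 70.8 normalized counts in the Control library of Set 3, against 38.6 to 42.0 in the others. The cause was not tested in any of these.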

How the results depend on the processing

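No log2 fold change of the 10 members called with or without the block changed sign under any alternative, and all 40 ratios within sets kept their sign with a pseudocount of 5. RLE, upper-quartile and total-count scaling and an adjusted p under 0.05 left Dkk2, Dkk3 and Sfrp4 as the members called, with none lower. The set as a replicate block (paired fit) gave 645 genes higher and 315 lower, of them 6 members higher and 4 lower, with 7 other Wnt genes higher (the 6 and Tle2) and 1 lower (Celsr1), and changed no other call among these genes. DESeq2 gave 707 and 192 genes, 5 members higher and 2 lower, and 1 other Wnt gene lower. Without an expression filter 1 member was lower (Wnt10a). At least 10 counts in every library left Dkk2 untested, with 2 members higher. An adjusted p under 0.05 gave 48 genes lower. Without a fold limit 210 genes, 1 member (Wnt9a) and 1 other Wnt gene (Tle3) were lower.

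Leaving out each library, or both of a set, gave 0 to 702 genes higher and 0 to 305 lower, 0 to 4 members higher and 0 to 2 lower, and 0 to 7 other Wnt genes higher and 0 to 1 lower. Without Set 3 no member was called and 1 gene was higher in all, and without Set 4 none was called, with 7 and 4 members at an unadjusted p under 0.05. These fits have fewer libraries and no block, as do those without Set 1 or Set 2, which gave 399 and 670 genes higher and 151 and 229 lower. Dkk2 and Dkk3 were called whichever single library was left out, Dkk2 at log2 fold changes of 6.75 to 8.85 over all leave-outs and Dkk3 at 2.44 to 2.98, while Sfrp4 ran from 3.46 to 4.10. Frzb was called higher without the Set 1 Notch3IC or the Set 2 Control library, and with either whole set left out. Without the Control library of Set 3 or 4, 75 and 99 genes were higher and 8 and 11 lower, and without the Notch3IC library of Set 3 or 4, 201 and 155 higher and 29 and 16 lower. Without the Notch3IC library of Set 2, 702 genes were higher and 305 lower, without Set 2 670 and 229, and without the Control library of Set 1 or Set 1 as a whole 146 and 151 were lower, and 61 with the Set 1 Notch3IC library left out. The cause was not tested. The 22 untested members were counted too low for the main test at this depth. Whether those at 0 counts are absent or only scarce was not tested.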
